A study of Mus musculus with 4 samples.

Results

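Short stretches that replicated late on average, with early replicating DNA on both sides, are the regions described here. These late valleys were collected from the population-based replication timing (RT) profile of F121-9 mouse embryonic stem cells (mESCs). RT is the log2 of early over late S-phase reads in a 50 kb bin, so bins above 0 were enriched in the early fraction and bins below 0 in the late fraction. A valley was a maximal run of 2 to 10 consecutive bins with RT below 0 on chromosomes 1 to 19, with at least 1 bin at or below -0.5, and with a bin of RT 1 or higher within 10 bins on each side and no missing bin on the way. The rule found 105 valleys with 717 bins, out of 47928 autosomal bins with a value. The RT values themselves chose these regions, so every RT value given for them is a description.

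Population-based replication timing had been measured to give the average schedule against which single cells could be set. F121-9 is a diploid line of hybrid cas/129 origin, cultured in N2B27 medium with 2i and LIF, which holds mESCs in a naive pluripotent state. All libraries came from this line grown in this way, given BrdU, which is built into DNA as it is copied, and divided by flow cytometry: 2 libraries came from the early S fraction and 2 from the late S fraction. The deposited profile has a single RT value per bin that combines the 4 libraries, so no error between replicates and no read depth can be given for any bin. The values describe 1 cell line, average the 2 homologs and average the cells of the culture: a bin that is late on 1 homolog or in some cells cannot be told apart from a bin of intermediate RT in every cell. The only noise measured was that from bin to bin, with an SD of 0.16 log2 around the mean of the neighboring bins. It was taken from the 18599 bins with RT beyond 3 in size. No valley bin reached that range, so the SD may not hold for the valleys.

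Eukaryotic chromosomes replicate from many origins that fire at different times in S-phase. Neighboring origins that fire at similar times form domains, and early domains are generally rich in genes and GC and lie in the open nuclear compartment, whereas late domains tend to be gene poor, AT rich and attached to the nuclear lamina. Between 2 early domains, DNA is copied by forks that enter from both sides and by any origins that fire inside, so a dip in RT marks the DNA that is finished last between them.

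The starts in and around the valleys ran from CpG-poor to CpG-rich, and the 250 bases upstream of 6 genes are printed here because they show that range. Capitals mark CpG, the dinucleotide whose density separates CpG island promoters from tissue-restricted ones, and each sequence runs 5′ to 3′ on the strand of the gene, in the GRCm38.p6 (mm10) assembly with RefSeq starts. The first 3 are promoters inside valleys, with fewer CpG than the other sequences. They belong to Kcnj15, an inward rectifier potassium channel (chr16:95257308-95257557, plus strand), Abca8b, a lipid transporter (chr11:109995846-109996095, minus strand), and Cyp4a30b, of the fatty acid hydroxylases (chr4:115452354-115452603, plus strand). The fourth is the CpG-rich promoter of Sox14, a transcription factor of developing neurons (chr9:99876171-99876420, minus strand), the single gene of the deepest valley. The last pair belongs to genes that start in the early flank and run across a whole valley, Hpse2, a heparanase-like protein (chr19:43388356-43388605, minus strand), and Kif26b, a kinesin family member (chr1:178528875-178529124, plus strand).
Kcnj15: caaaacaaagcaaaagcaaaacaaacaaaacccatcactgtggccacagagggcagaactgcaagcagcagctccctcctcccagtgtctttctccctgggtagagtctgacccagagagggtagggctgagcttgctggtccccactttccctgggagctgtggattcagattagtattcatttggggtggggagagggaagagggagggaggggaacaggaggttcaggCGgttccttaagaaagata
Abca8b: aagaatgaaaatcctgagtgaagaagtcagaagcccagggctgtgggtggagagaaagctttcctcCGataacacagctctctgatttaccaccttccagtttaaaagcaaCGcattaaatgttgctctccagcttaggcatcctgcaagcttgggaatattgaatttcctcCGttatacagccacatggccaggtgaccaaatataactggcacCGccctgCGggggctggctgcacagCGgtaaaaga
Cyp4a30b: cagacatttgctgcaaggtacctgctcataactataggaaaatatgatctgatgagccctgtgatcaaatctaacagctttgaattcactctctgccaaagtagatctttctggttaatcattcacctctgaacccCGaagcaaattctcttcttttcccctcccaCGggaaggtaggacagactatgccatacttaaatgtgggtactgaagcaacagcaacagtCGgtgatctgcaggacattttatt
Sox14: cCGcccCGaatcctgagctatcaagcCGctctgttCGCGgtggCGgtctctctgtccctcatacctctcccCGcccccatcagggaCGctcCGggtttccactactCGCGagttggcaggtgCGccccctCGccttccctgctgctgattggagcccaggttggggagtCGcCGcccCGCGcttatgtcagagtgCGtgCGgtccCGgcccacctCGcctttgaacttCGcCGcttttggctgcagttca
Hpse2: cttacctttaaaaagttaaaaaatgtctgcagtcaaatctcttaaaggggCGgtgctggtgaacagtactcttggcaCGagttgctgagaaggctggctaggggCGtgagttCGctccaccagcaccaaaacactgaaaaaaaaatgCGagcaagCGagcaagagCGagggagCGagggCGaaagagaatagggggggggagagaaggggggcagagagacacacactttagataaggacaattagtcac
Kif26b: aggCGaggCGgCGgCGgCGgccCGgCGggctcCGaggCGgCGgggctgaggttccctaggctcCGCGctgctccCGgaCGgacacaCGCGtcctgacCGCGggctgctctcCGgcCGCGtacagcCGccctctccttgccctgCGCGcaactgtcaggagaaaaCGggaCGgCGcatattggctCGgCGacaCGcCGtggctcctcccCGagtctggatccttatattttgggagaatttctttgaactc
These windows held 1 CpG in Kcnj15, 6 in Abca8b, 3 in Cyp4a30b, 23 in Sox14, 9 in Hpse2 and 32 in Kif26b. RT at the start was -2.09 for Kcnj15, -2.29 for Abca8b, -1.12 for Cyp4a30b and -0.87 for Sox14, and it was above 0 for the genes that start outside, at 0.75 for Hpse2 and 1.54 for Kif26b.

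The profile had 983 autosomal runs with RT below 0, and most of them were long: 596 spanned over 10 bins. Of the shorter ones, 65 were a single bin, 91 had a lowest RT above -0.5, 95 lacked a bin of RT 1 within 10 bins on a side and 31 met a missing bin or a chromosome end first. The 105 that remained are the valleys. The depth limit is not a natural gap in the data. The 5 valleys just inside it had a lowest RT of -0.51 (chr1:92550001-92800000), -0.52 (chr15:103650001-103800000), -0.52 (chr1:178650001-178850000), -0.52 (chr5:118950001-119250000) and -0.54 (chr10:43750001-44100000). The 5 runs just outside it reached -0.49 (chr10:8200001-8450000), -0.47 (chr12:40500001-40700000), -0.47 (chr18:80550001-80700000), -0.46 (chr2:173850001-174000000) and -0.45 (chr10:69600001-69750000), and 42 runs in all met every condition except depth.

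The lowest bin of most valleys lay near the center. Length had a median of 350 kb (95% interval of the median 300 to 400) and ran from 150 to 500 kb, with no run of only 2 bins among them. The lowest bin had a median RT of -1.16 (-1.41 to -0.95), and it ranged from -2.58 to -0.51 over the valleys. The flanks reached a median peak RT of 2.89 on the left and 2.61 on the right within 10 bins, and in 53 valleys both peaks were above 2. The lowest bin lay within 50 kb of the center in 92 of 105 valleys (87.6%), which short runs largely impose, and 87 (82.9%) had a single local minimum. The sides were not mirror images. The peaks of the 2 flanks of a valley differed by a median of 0.78 (0.55 to 0.99) and by up to 2.70, the left and right peak had a Pearson's correlation of 0.02 across the 105 valleys, and the left and right wall slope one of 0.13. Early DNA did not extend far in every case: 1000 kb from the lowest bin, the lower quartile of RT was -0.42 on the left and -0.23 on the right. These intervals use the order statistics of the valleys and cover the spread between valleys, not between cultures.

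Longer valleys were later. Median lowest RT was -0.59 over the 7 valleys of 150 kb, -0.84 over the 16 of 250 kb, -1.30 over the 18 of 350 kb and -1.95 over the 17 of 500 kb. Across the 105 valleys, length in bins and lowest RT had a Pearson's correlation of -0.76 and a Spearman's correlation of -0.76, which is a description across regions of a single profile that were chosen on both measures. Longer late runs that met the flank condition continued this order. Their median lowest RT was -2.46 for the 60 of 550 to 750 kb, -2.86 for the 45 of 800 to 1000 kb and -3.57 for the 102 of 1050 to 2000 kb. Among them, runs longer than 4 Mb differed little from those of 2050 to 4000 kb, with medians of -4.25 and -4.17. The walls of the valleys changed by a median of 9.14 log2 per Mb between the valley and the first bin of RT 1.

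**Figure D1:**
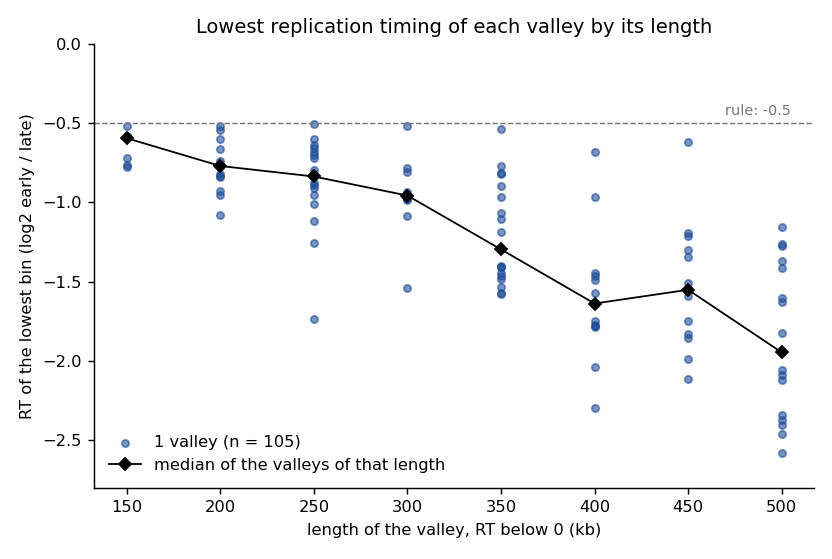
RT of the lowest bin (log2 of early over late) on the vertical axis against length in kb on the horizontal axis, with 1 point for each of the 105 valleys and a black diamond for the median at each length. The medians run from -0.59 at 150 kb to -1.95 at 500 kb, and no point lies above the limit of -0.5 that the rule set.

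For a mirror image of the valleys, short early islands were collected with the signs turned: runs of 2 to 10 bins with RT above 0, 1 bin at or above 0.5 and RT of -1 or lower on both sides. There were 145 islands with 1003 bins. They had the same median length of 350 kb, a median highest RT of 1.33 and walls of 9.35 log2 per Mb, measures that the shared rule largely sets. Gene starts, which the rule did not use, were spread differently. The share of bins with the start of a protein-coding gene peaked at 62.1% at the highest bin of the islands, against 41.4% and 44.1% at 50 kb on its left and right. In the valleys it was 26.7% at the lowest bin and at most 26.7% in the bins up to 100 kb away, and it was 49.5% and 46.2% at 500 kb on the left and right. The median GC content at the lowest bin of the valleys was 43.2%, and at 500 kb it was 44.6% on the left and 44.5% on the right.

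**Figure D2:**
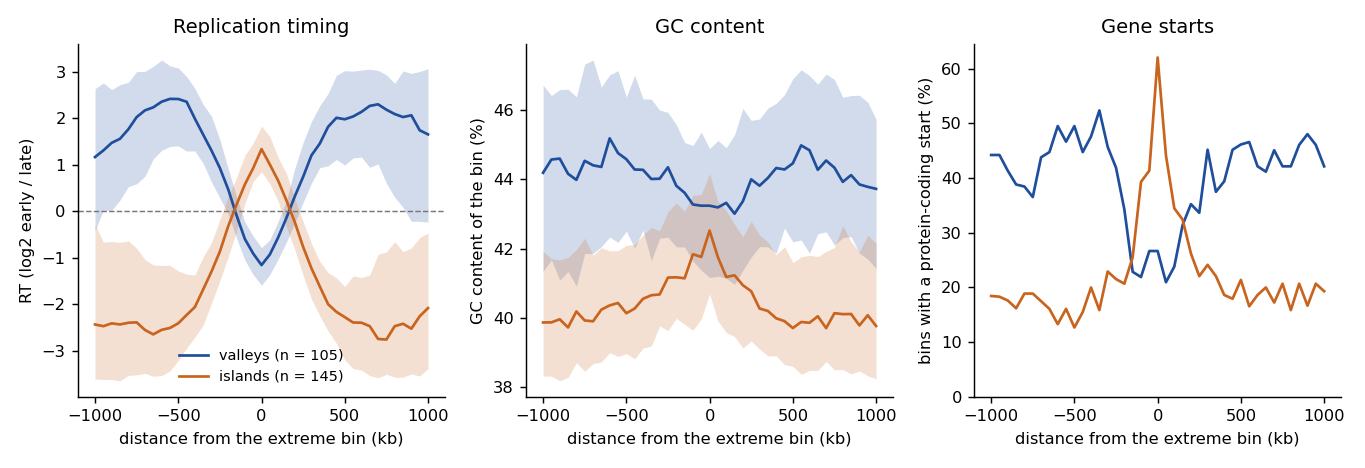
Course of RT (log2, left), GC content of the bin (percent, middle) and share of bins with a protein-coding gene start (percent, right) against distance in kb from the lowest bin of the 105 valleys (blue) and from the highest bin of the 145 early islands (orange). Lines in the left and middle panels are medians and bands span the quartiles. The islands have a sharp peak of gene starts at their highest bin (62.1%), whereas the valleys have a flat floor.

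The 12 deepest valleys show what lies at the bottom. The deepest, chr9:99800001-100300000, had RT values of -0.71, -0.87, -1.66, -2.21, -2.58, -2.58, -2.30, -1.94, -1.48 and -0.61 from left to right, between flanks that peaked at 3.55 and 3.32. Its only protein-coding gene is Sox14, in the second bin, and no protein-coding gene overlapped the lowest bin. The second, chr11:109750001-110250000, ran through -0.40, -1.03, -1.19, -1.92, -2.29, -2.46, -2.30, -1.71, -1.04 and -0.51. It holds the starts of Abca8b, Abca8a and Abca9, neighboring members of the ABC transporters that move lipids, and of 1700012B07Rik. Abca8a overlapped the lowest bin. The right flank of this valley reached only 1.19, whereas its left flank reached 2.56.

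The third deepest valley lies in the clustered protocadherin locus, chr18:37000001-37500000. Its bins had RT of -0.21, -1.10, -1.69, -1.91, -2.26, -2.40, -2.17, -1.86, -1.34 and -0.76. Clustered protocadherins are adhesion molecules whose isoform choice gives neurons a surface identity, and their alpha, beta and gamma clusters lie next to each other. The gamma cluster stood apart from the others in RT. The starts of the 14 alpha genes had RT from -1.69 to 1.12, with 5 of them in the valley. The starts of the 22 beta genes had RT from -2.40 to 0.14, with 19 in the valley, and the 21 gamma genes had RT from 2.53 to 3.02, with none in it. The alpha and beta ranges overlapped, and neither overlapped the gamma range.

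The next 3 had different contents. The valley chr7:121150001-121650000 had RT of -0.11, -0.88, -1.51, -1.95, -2.25, -2.37, -2.08, -1.60, -0.85 and -0.39, and its only start was that of Hs3st2, an enzyme that modifies heparan sulfate, which overlapped the lowest bin. The valley chr14:51200001-51700000 had RT of -0.39, -1.08, -1.47, -2.04, -2.17, -2.34, -2.21, -1.43, -1.46 and -1.05, and it holds 11 starts, among them those of the ribonuclease genes Ear14 and Rnase2a and of the vomeronasal receptors Vmn2r88 and Vmn2r89, which detect pheromones. Vmn2r89 and Gm7247 overlapped its lowest bin. The valley chr2:83950001-84350000 had RT of -0.85, -1.42, -1.94, -2.30, -2.12, -1.53, -0.79 and -0.31, with 7 starts of predicted genes (Gm13691 and Gm13693 to Gm13698). Calcrl, the receptor component for calcitonin gene-related peptide and adrenomedullin, was the longest gene that overlapped it, and its lowest bin held no protein-coding gene.

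Ror1, a receptor tyrosine kinase-like protein of 349 kb, overlapped the lowest bin of chr4:100050001-100550000, where RT ran through -0.21, -0.92, -1.28, -1.68, -2.12, -2.05, -1.70, -1.23, -0.69 and -0.18. Ube2u also starts there. The valley chr14:66300001-66750000, with RT of -0.04, -0.71, -1.44, -1.72, -2.11, -2.05, -1.85, -1.36 and -0.70, holds the starts of Adra1a, an adrenergic receptor, and Stmn4, a stathmin of neurons. Kcnj15 overlapped the lowest bin of chr16:95000001-95500000, with RT of -0.30, -0.66, -1.18, -1.72, -1.96, -2.09, -1.72, -1.39, -0.90 and -0.48, and the body of Erg, a transcription factor of the Ets family, overlapped the same valley. Kcnj15 was the one start in it.

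In chr5:151050001-151550000 RT was -0.69, -1.33, -1.71, -2.06, -2.00, -1.91, -1.56, -1.29, -1.07 and -0.36. Stard13 and the predicted gene Gm42906 started there and overlapped the lowest bin. The valley chr4:115150001-115550000 had RT of -0.04, -0.91, -1.59, -2.04, -1.90, -1.68, -1.12 and -0.32 and holds 6 genes, all of the Cyp4a family of fatty acid hydroxylases, with Cyp4a12a at the lowest bin. The twelfth, chr18:66550001-67000000, had RT of -0.37, -1.09, -1.62, -1.92, -1.96, -1.99, -1.77, -1.06 and -0.41. Mc4r, the melanocortin receptor that controls food intake, was the only protein-coding gene in it, outside the lowest bin. Of these 12 valleys, 11 had a lower GC content than the mean of their flanks (5 bins on each side), by 0.32 to 3.45 percentage points, and the valley of Ror1 was 0.27 points higher.

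**Figure D3:**
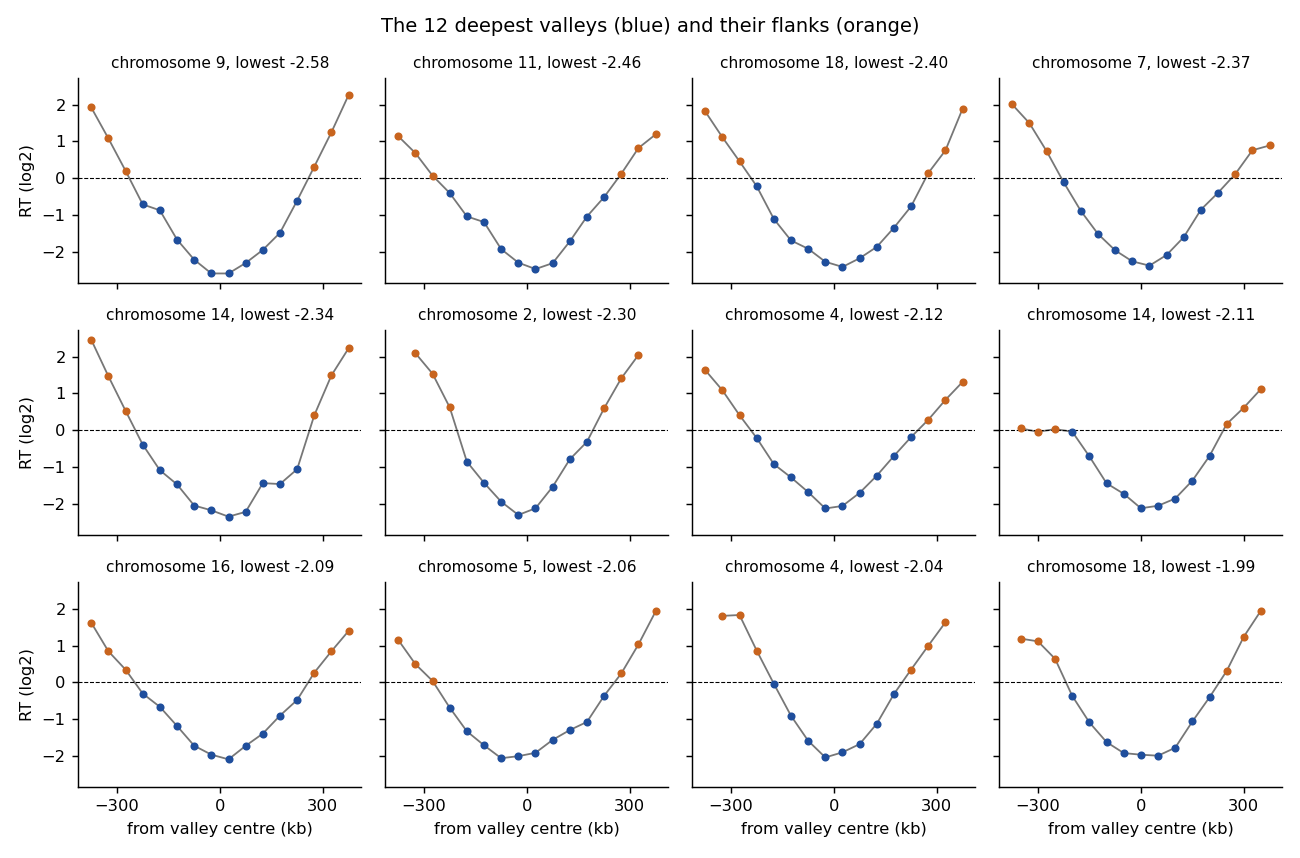
RT (log2 of early over late) of each 50 kb bin in the 12 deepest valleys, against distance in kb from the center of the valley, with valley bins in blue, the nearest 3 bins on each side in orange and a dashed line at RT 0. Within the valley bins RT falls to the lowest bin and rises again, in uneven steps. The direction reverses only in the fifth panel (chromosome 14, lowest -2.34), where 2 bins at -1.43 and -1.46 interrupt the slope.

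Over all valleys, 246 protein-coding genes had their start in a valley bin, out of 20732 on the autosomes (1.19%). A family was counted where 3 or more starts in a valley shared the first 3 letters of their symbols, or belonged to predicted genes of the same length. Such families occurred in 15 of 105 valleys (14.3%, exact binomial interval 8.22 to 22.5), which held 135 of the 246 starts (54.9%), 114 of them members of the family. In the early islands the same count gave 9 of 145 (6.21%, 2.88 to 11.5), with 113 of 586 starts (19.3%), so the intervals for the share of regions overlapped. With 4 letters the count was 11 valleys with 111 starts, and 8 islands with 106. No such count is given for other late runs or for all genes. The shares therefore do not show whether families are particular to the valleys. Besides the protocadherin valley, the one with the most starts was chr11:58450001-58800000, with 21 starts, of which 18 were olfactory receptors, and a lowest RT of -1.53. In chr13:21550001-21750000 7 olfactory receptors and 5 replication-dependent histone genes shared a valley of only 200 kb, whose lowest RT was -1.08. Olfactory receptors led again in 2 more valleys (8 starts in chr7:140350001-140600000 and 5 in chr1:92550001-92800000). The other families were the Ces2 carboxylesterases (6 starts, lowest RT -1.58), the Ugt1a glucuronosyltransferases of bilirubin and drug metabolism (5 starts, -1.74), the H2-M genes of the major histocompatibility complex (4 starts, -1.54), the interferon-induced guanylate-binding proteins Gbp4, Gbp6 and Gbp8 to Gbp10 (5 starts, -1.30), the alcohol dehydrogenases Adh1, Adh6a, Adh6b and Adh7 (4 starts, -0.91), the Ly6 surface proteins (4 starts, -0.96), and the keratins of chr15:101550001-101800000, where 8 of 10 starts were keratins and the lowest RT was -1.26. The Abca and Cyp4a valleys and the predicted genes of chromosome 2, of which 7 have the same length, are described above.

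Of 23 gene lists, the clustered protocadherins had the largest share of starts in valleys, 24 of 57 (42.1%), all in the 1 valley. Over all protein-coding genes the share was 1.19%. The list of histones had 5 of 67 (7.46%), Hist1h2bl, Hist1h2ai, Hist1h3h and Hist1h2bm at RT -0.57 among them, and 32 histone genes started in early islands. Keratins had 8 of 113 (7.08%), including Krt6a and Krt6b at -1.26 and Krt5 and Krt71 at -0.92. Cytochrome P450 genes had 6 of 100, and olfactory receptors had 38 of 1128 (3.37%) in 4 valleys. Since each of these counts comes from 1 to 4 regions, the genes of a list are not separate observations. Most of the late olfactory receptors were elsewhere: 928 of the 1128 had RT below 0 and 106 started in late runs of 3 Mb or longer.

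Genes of excitable cells appeared only as single entries, beside a share of 1.19% over all protein-coding genes. Ion channels had 4 of 173 starts in valleys (2.31%), in 4 different ones: Kcnj15 (-2.09), the cold receptor Trpm8 (-1.71), the calcium channel subunit Cacng3 (-0.89) and the potassium channel Kcnk1 (-0.33). Adra1a (-1.85) and the NMDA receptor subunit Grin2a (-0.33) were 2 of 93 neurotransmitter receptors (2.15%). Cntnap3 (-0.11) was the only synaptic adhesion gene of 38 (2.63%). Sox14 was 1 of 76 Sox, Fox, Tbx and Gata factors (1.32%). Zinc finger proteins had 2 of 411, Zfp831 (-1.45) and Zfp157 (-0.49), and solute carriers 2 of 358, Slc34a2 (-0.98) and Slc35f3 (-0.69). Vomeronasal receptors had 2 of 316 (0.633%). Counts this small are not a result about these lists.

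The lists were drawn up by symbol and are not complete for their subject, and several had no start in any valley. This was the case for 143 homeobox regulators, 108 cytokines and chemokines, 89 adhesion and other G-protein coupled receptors, 75 ribosomal proteins, 67 axon guidance genes, 60 serpins, 60 Wnt, Fgf and Bmp ligands, 43 collagens, 33 cadherins and other protocadherins, 29 replication licensing and origin factors and 20 neural bHLH factors. At the background of 1.19% a list of this size holds few valley starts in any case, so these zeros are not a result about the lists. They also do not mean that such genes were absent: the chemokine Xcl1 (RT -1.41 at its start) and the G-protein coupled receptors Mc4r (-1.77), Ednra (-0.60), Tas2r134 (-0.41) and Glp2r (-0.06), whose symbols the lists do not cover, started in valleys. Among other kinds of gene, unprocessed pseudogenes, which arise from gene duplication, had 59 of 1789 starts in valleys (3.30%), and lincRNAs had 107 of 5209 (2.05%), beside 110 of 8924 processed pseudogenes (1.23%).

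Some valleys lay inside long genes, as annotated in GENCODE vM21. A single protein-coding gene covered every bin of the valley in 12 of 105 (11.4%, exact binomial interval 6.05 to 19.1), against 2 of 145 early islands (1.38%, 0.167 to 4.89). The intervals cover counting error only. Being covered whole was not particular to the valleys. With no depth limit the share was 17.7% of 147 runs, and with a depth limit of -1 it was 5.08% of 59. A gene of 200 kb or longer overlapped 29.3% of valley bins and 21.8% of the other late bins. The share was 13.1% of island bins and 18.9% of all autosomal bins. By region, valleys and islands were close: such a gene overlapped 38 of 105 valleys (36.2%, 27.0 to 46.1) and 49 of 145 islands (33.8%, 26.2 to 42.1). In 36 valleys the lowest bin overlapped a gene of 100 kb or longer, 45 genes in all. RT was above 0 at both ends in 13 of these genes, at the start only in 9, at the end only in 9 and at neither end in 14. These are counts of annotated genes, and some overlap each other. Gm42416, Gm37013 and Gm37388, with both ends early, share 1 valley. Ugt1a7c, Ugt1a8, Ugt1a9 and Ugt1a10, early at the start only, share another.

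Exoc4, a subunit of the exocyst that tethers secretory vesicles, is a gene of 725 kb in which RT passed from early to late and back. From the start of the gene its 16 bins had RT of 1.64, 1.10, 0.54, -0.14, -0.49, -0.82, -0.78, -0.76, -0.48, -0.16, 0.29, 0.49, 0.90, 1.17, 1.51 and 1.72. Vps13b, a lipid transfer protein of 560 kb, had the same course over 12 bins, with 2.03, 1.37, 0.77, 0.01, -0.48, -0.65, -0.83, -0.35, 0.02, 0.61, 1.10 and 1.68. Hpse2 (602 kb) had the deepest such valley among these, with 0.75, 0.07, -0.55, -1.14, -1.62, -1.77, -1.59, -1.06, -0.71, -0.06, 0.57, 0.95 and 1.60. In all 3 genes the first and the last bin were early and the middle was late.

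Atp8a2, a phospholipid flippase of 559 kb, had 0.52, -0.16, -0.82, -1.26, -1.44, -1.24, -1.16, -0.83, -0.36, 0.02, 0.48 and 1.02, so that its start was closer to the late part than its end. Kalrn was lopsided: its 13 bins had 0.12, -0.24, -0.71, -0.74, -0.33, 0.20, 0.69, 1.39, 1.84, 2.34, 2.58, 2.68 and 2.75. The late bins of Kalrn lay just after its start, and the far end was fully early. Hivep3, Kif26b, Bach2, Limch1 and the predicted gene Gm11639 covered valleys of 150 to 200 kb whose lowest RT was between -0.76 (Limch1) and -0.52 (Kif26b). GC content inside Exoc4 was 37.4% to 40.3% in the valley bins, 41.5% in the first bin and 45.1% in the last. The early bins next to this valley lay within its range, at 37.9% and 40.1%. In Hivep3 the valley bins had 46.8% to 50.4%, above the 45.0% of the first bin, and the last bin had 50.8%.

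Both remaining cases rest on the annotation, and those of Bach2 and Kalrn do in part. The RefSeq start at hand for Bach2 (position 32417435) lies beyond its valley, and that for Kalrn (position 34514027) lies inside its valley. From these starts neither gene would cover its valley. Fgfr2, a fibroblast growth factor receptor, has a body of 2961 kb in GENCODE vM21 that covers the valley chr7:131100001-131350000, whereas its RefSeq start lies at position 130266808, outside the valley. Over the protocadherin valley run the long predicted genes Gm42416, Gm37013 and Gm37388, which join the starts of several protocadherins.

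**Figure D4:**
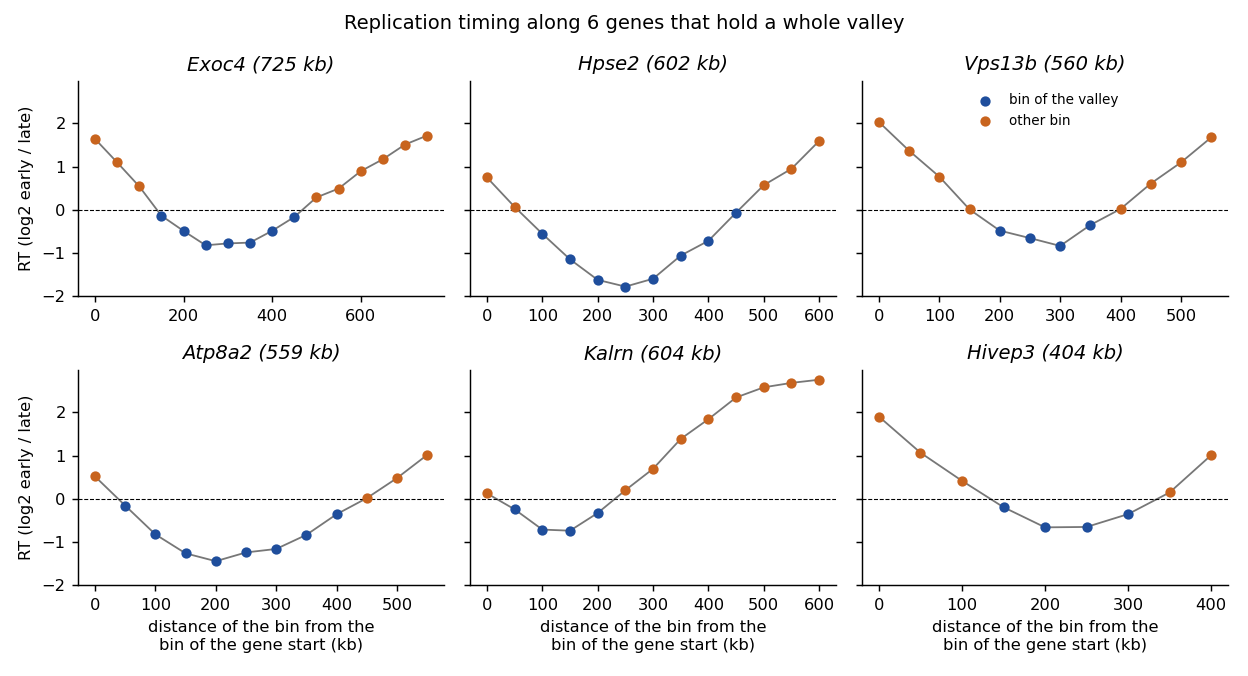
RT (log2 of early over late) of each bin along 6 genes whose GENCODE body holds a whole valley. The horizontal axis is distance in kb from the bin of the GENCODE gene start. Valley bins are in blue and other bins in orange, with a dashed line at RT 0. Exoc4, Vps13b, Hpse2, Atp8a2 and Hivep3 have early ends and a late middle, and in Kalrn the late bins lie close to the start.

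Over the autosomes, late bins inside a gene with early ends were found mostly in the longest genes. Of the 928 autosomal protein-coding genes of 100 to 200 kb with RT above 0 at both ends, 10 held a bin below 0 (1.08%). The figure was 9 of 199 (4.52%) for genes of 200 to 300 kb, and 45 of 128 (35.2%) for genes of 300 kb or longer, of which 27 reached -0.5 and 13 had bins in a valley. Those 13 include the overlapping genes Gm42416, Gm37013 and Gm37388. None of the genes of 100 to 300 kb with 2 early ends had bins in a valley. Gene length largely sets this outcome. A gene with 2 early ends can hold valley bins only if the whole valley lies between its ends. The shortest valley was 150 kb long and the median was 350 kb. Longer genes also span more bins, which leaves more room for a late bin. Whether the share rose with gene length beyond this effect was not tested.

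Most valleys held few gene starts. The median was 4 starts per Mb (2.86 to 5), and it was 10 (8 to 10) in the 10 flanking bins of the same valleys. The number per Mb was lower than in the flanks in 80 of 105 valleys (76.2%), higher in 17 and equal in 8. No gene started in 32 valleys, exactly 1 in 27, and 5 or more in 16, and 17 valleys overlapped no protein-coding gene at all. By bin, 22.7% of valley bins held a start (exact binomial interval 19.7 to 26.0), between the 14.1% of other late bins and the 47.6% of early bins, with 41.1% in the islands and 8.91% in late runs of 3 Mb or longer. Bins of 1 valley share their genes and their neighbors, so these intervals are too narrow. The other late bins include those of the long late runs, and the early bins include the islands.

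The valleys were richer in GC than other late DNA. Valley bins had a median GC content of 43.1% (quartiles 41.2 and 45.0), close to the 44.7% of early bins and above the 39.3% of the other late bins and the 38.1% of the long late runs. The other late bins include those of the long late runs. The same order of the late groups held within intervals of RT. Between -1.5 and -1 the median was 43.1% in 152 valley bins, 41.1% in 2155 other bins and 40.0% in 673 bins of long late runs. Between -1 and -0.5 it was 43.2%, 41.6% and 40.4%, and between -0.5 and 0 it was 43.3%, 42.2% and 40.9%. In all 5 intervals the valley bins were highest and the long late runs lowest, although the quartile ranges of neighboring groups overlapped.

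Gene starts had no such order. The share of bins with a start was 17.8% in the valleys and 22.3% in other bins between -1.5 and -1, 25.5% and 22.7% between -1 and -0.5, and 22.7% and 24.4% between -0.5 and 0. An exception was the interval from -3 to -2, with 37.0% in the valleys and 15.6% in other bins, which rests on 27 valley bins. The share of masked letters (repeats, lower case in the RefSeq assembly) was lower in valley bins in each interval, for example 26.9% against 30.3% between -1 and -0.5.

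**Figure D5:**
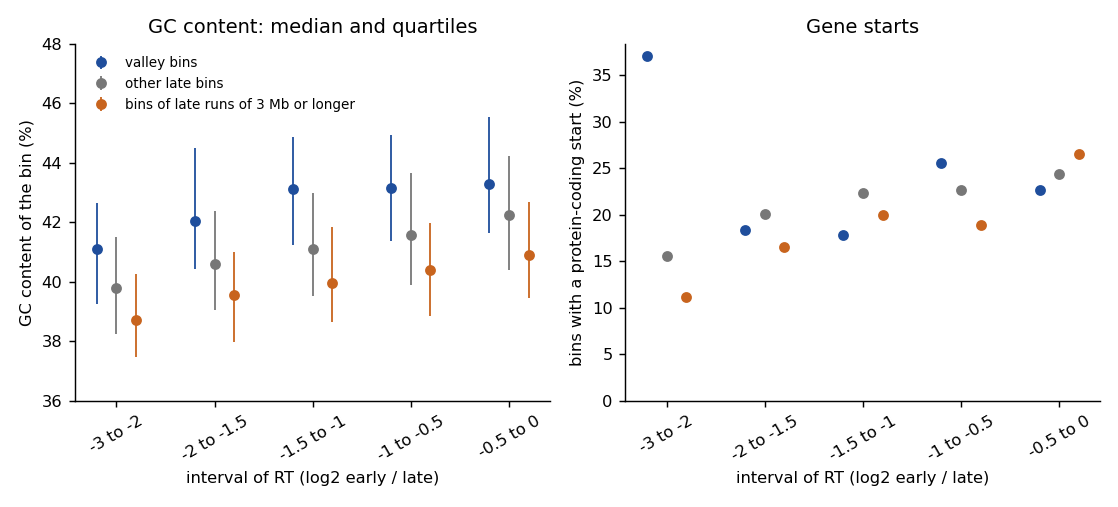
GC content of the bin (left, percent, median with quartile bars) and share of bins with a protein-coding gene start (right, percent) within 5 intervals of RT (log2 of early over late), for valley bins (blue), other late bins (gray) and bins of late runs of 3 Mb or longer (orange). The gray group includes the orange one. GC content keeps 1 order in all intervals, with valleys highest, while the order of gene starts changes from interval to interval.

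Against their own flanks the valleys differed little in GC content. It had a median of 43.4% (42.4 to 44.0) in the valleys and 43.9% (43.4 to 44.4) in the flanks, and the difference had a median of -0.74 percentage points (-1.25 to -0.40). GC content was lower than in both flanks taken separately in 54 of 105 valleys (51.4%, 41.5 to 61.3), higher than in both in 15, and lower than in the pooled flanks in 77. The span was wide, from 6.29 points below the flanks to 3.58 points above. CpG stood further apart. The ratio of observed to expected CpG was 0.185 in the valleys and 0.210 in the flanks, and it was lower than in the flanks in 87 of 105 valleys (82.9%, 74.3 to 89.5). In the islands, GC content was higher than in both flanks in 85 of 145 (58.6%). Across the 105 valleys, GC content and lowest RT had a Pearson's correlation of 0.20 and a Spearman's correlation of 0.18, and starts per Mb and lowest RT had -0.09 and -0.0021, a description over regions of 1 profile.

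Promoters of valley genes were mostly poor in CpG, like those of genes of other late bins. RefSeq windows for 156 genes with a start in a valley bin had a median of 3 CpG in the 250 bases upstream (quartiles 1 and 8). The median was 13.5 over 11663 genes of early bins, 15 over 400 genes of islands, 2.5 over 3842 genes of other late bins and 11 over all 15611 genes. At most 5 CpG were found in 104 of the 156 valley genes (66.7%) and in 33.9% of all genes, and 15 or more, as in Sox14, in 24 (15.4%) and in 38.8% of all. Without the 15 family valleys the median of the remaining 84 genes was 6 (quartiles 2.88 and 15.1). At most 5 CpG were then found in 40 of them (47.6%) and 15 or more in 22 (26.2%). Genes that start in valleys had a median length of 10.2 kb, and 36.5 kb without the family valleys, beside 17.7 kb over all genes.

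Valleys occurred on all 19 autosomes, with 9 each on chromosomes 1 and 2 and 3 each on chromosomes 3, 9, 12, 17, 18 and 19. Per 100 Mb of bins with a value the number ran from 1.92 on chromosome 3 to 5.97 on chromosome 13. Neighboring valleys of a chromosome were a median of 14625 kb apart, and 8 of 86 gaps were 1 Mb or shorter. The closest pair lay 200 kb apart on chromosome 18, where the valley of Mc4r follows one in Ccbe1 (chr18:66100001-66350000, lowest RT -0.87).

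In 7 valleys the profile was jagged. There, 14 bins deviated by over 0.5 from the mean of their neighbors. The largest deviation, 1.22, was that of chr12:101350001-101400000, with RT -1.83 between neighbors at -1.18 and -0.03. In the Ugt1a valley 2 adjacent bins had -1.74 and -1.71 between neighbors at -0.51 and -0.44. The masked share had a median of 44.5% in the 7 jagged valleys, with a range of 24.2% to 60.3%, and of 26.5% in the other 98, with a range of 17.2% to 62.9%; its part in the deviations was not tested. No valley bin had an RT value that recurred in 3 or more bins of the profile, and 2 valley bins held under 45000 assembled bases.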

How the data were processed

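Repli-seq libraries of diploid F121-9 cells, 2 per S-phase fraction, were reduced by the authors to RPM and then to the deposited log2 ratio of early over late reads, 1 value per 50 kb bin. The submitters' processing notes name Bowtie2, SAMtools, bedtools and mm10. How the replicates were combined, and any smoothing, scaling or filter of bins, is not given in the sources used here. Depth per library is unknown.

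The 47928 autosomal bins with a value were searched for valleys with the rule of the report. GC content, CpG, masked letters and gene starts were counted from the GRCm38.p6 RefSeq sequence, which is mm10, with GENCODE vM21 genes. Flanks were 5 bins on each side. The regions, gene lists and comparisons were chosen with earlier results of these data known, and no test was made, since RT chose the regions and has no replicate error. Named were the 12 deepest valleys, the 3 with most starts, the 5 closest to the depth limit on each side, genes over the lowest bins, the 10 longest genes that cover a valley and up to 4 genes per list. The families, jagged bins, Kif26b, Hivep3, Bach2 and Limch1, the other genes that start in the named valleys, and the 6 printed promoters (windows free of annotated UTR) were chosen after values were seen. Medians have order-statistic and shares exact binomial 95% intervals. The rule was tested on simulated profiles with flat flanks and noise far below the measured SD of 0.16 log2. They held no valley near the depth limit, so the test does not show how noise moves runs across it. Python 3.11.15, numpy 2.4.6, pandas 2.3.3, scipy 1.17.1 and matplotlib 3.10.9 were used.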

Additional observations from a re-analysis of the deposited data

Results flagged for a closer look

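The rule was applied to chromosomes 1 to 19 only. On X, which the comparisons above leave out, 5 runs met it, in data outside the main measurement. They were 200 to 400 kb long, and their lowest RT was -1.21 at chrX:74650001-75000000 (Gm6890), -0.96 at chrX:100050001-100350000 inside Eda, the ectodysplasin gene, -0.88 at chrX:102750001-102950000 (Dmrtc1c1 and Dmrtc1c2), -0.89 at chrX:130050001-130400000 inside Diaph2, an actin nucleator of 716 kb, and -1.01 at chrX:163300001-163700000 (Grpr, the receptor of gastrin-releasing peptide). Their peaks on either side were between 1.11 and 3.66.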

How the results depend on the processing

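Of 80 alternatives, 63 left their value within its interval or, for counts, within 1.5 times, none reversed a sign, and 17 moved a value. With a depth limit of -1, 59 valleys remained, with a median lowest RT of -1.57 and 5.08% covered whole by 1 gene. Without a depth limit, the median length was 250 kb and the median lowest RT -0.82. Flanks of RT 2 left 53 valleys. Runs of 2 to 5 bins gave 36 valleys of 200 kb with a median lowest RT of -0.76, 36.6% of bins with a gene start and 22.2% covered whole, and runs of 2 to 20 bins gave 210 valleys of 525 kb with -1.78. With all annotated genes, 54.5% of valley bins held a start. Leaving out the family valleys, which was chosen after seeing the data, gave 15.8% of bins with a protein-coding start and a median of 6 promoter CpG. Leaving out the 7 jagged valleys, also chosen afterwards, gave 98 valleys with a median lowest RT of -1.10. The median GC difference from the flanks stayed below 0 in every setting that gave one, between -1.22 with runs of 2 to 20 bins and -0.55 without the family valleys.

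No paired analysis was possible because all libraries share 1 value per bin, and leaving out a library was not possible for the same reason. Differences in RT between cultures, between homologs and between cells are therefore not covered, and the depth that limits the shallow valleys near -0.5 is unknown.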
